A study of Mus musculus with 12 samples.

Results

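The genes of the chemokine ligands were examined in skin of C3H/HeJ mice with alopecia areata, an autoimmune disease of the hair follicle. A gene was taken as a member if a probe set carried its symbol alone and this symbol was Ccl or Cxcl followed by a digit, or was Xcl1, Cx3cl1 or Pf4. This gave 34 genes with 52 probe sets, out of 18193 genes and 45037 probe sets tested, and of several probe sets for a gene the one with the highest mean level was used. There were 18 genes of the Ccl family, 13 of the Cxcl family and 3 others (Xcl1, Cx3cl1 and Pf4). Probe sets of Ccl19 and Ccl21 carry several symbols and are not among the members.

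All mice were C3H/HeJ recipients of skin grafts from alopecic C3H/HeJ donors, and all had established disease when treatment began. In this model the grafted recipients lose their hair, and the ages of the animals are not given in the labels. Baricitinib, a small molecule inhibitor of JAK1 and JAK2, was applied topically to 3 mice, and vehicle control to 3 others. Each mouse gave a skin biopsy at both times, and the 4 groups of 3 Affymetrix arrays were baricitinib week 0, baricitinib week 12, vehicle week 0 and vehicle week 12. The week 0 skin is thus diseased skin from before treatment, and no healthy skin was analysed here.

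Chemokines are small secreted proteins that guide leukocytes along a gradient, by binding to G protein-coupled receptors on the cell surface. Inflammatory chemokines are induced by cytokines such as interferon-gamma, TNF and IL-1, while homeostatic chemokines are made in resting tissue. Interferon-gamma acts through JAK1 and JAK2, and in the skin of alopecia areata Cxcl9, Cxcl10 and Cxcl11 are known as interferon-induced ligands of CXCR3, a receptor of activated T cells.

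Keratinocyte and dermal genes were bright on all arrays, with a mean log2 level of 12.1 to 12.6 over 9 genes, and none of the 9 was called. Arrays correlated with the others at a mean of 0.941 to 0.973. The difference in level between the 3' and the 5' control probe sets, a sign of RNA quality, was 3.19, 4.10 and 2.55 at week 0 of baricitinib and 3.45, 1.27 and 1.31 at week 12. It was 1.23, 3.67 and 4.08 at week 0 of vehicle and 2.97, 3.10 and 3.58 at week 12. With this index as a covariate, a setting chosen after seeing the data, 10 members were called for week 12 against week 0 of baricitinib, all 7 described below among them, and the probe sets called rose from 1.24% to 3.91% of all. In the study's own processing 1 baricitinib array of each time failed quality control, and whether these are among the 3 arrays of each group is not stated. Without the baricitinib array of narrowest spread at each time, week 0 replicate 2 and week 12 replicate 1, all 7 were called as well.

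The promoters of members that were called are shown first. A relation between the motifs and the changes was not tested. RefSeq (GRCm38.p6, the C57BL/6J genome, not that of C3H/HeJ) gave promoters for 24 of the 34 genes. Of the 7 called genes, Cxcl11 and Ccl5 are not in the table and were not searched. The 250 bases before the transcription start are printed for Cxcl9 (chr5:92328080-92328329, minus strand), Cxcl10 (chr5:92348890-92349139, minus strand), Ccl1 (chr11:82179813-82180062, minus strand), Ccl3 (chr11:83649379-83649628, minus strand) and Cxcl1 (chr5:90890995-90891244, plus strand), each 5' to 3' on the strand of the gene. Capitals mark the core of an interferon-stimulated response element, on either strand, and in Cxcl1 the NF-kB consensus. Cxcl10 and Ccl1 also match the NF-kB consensus, and these matches are not in capitals.
Cxcl9: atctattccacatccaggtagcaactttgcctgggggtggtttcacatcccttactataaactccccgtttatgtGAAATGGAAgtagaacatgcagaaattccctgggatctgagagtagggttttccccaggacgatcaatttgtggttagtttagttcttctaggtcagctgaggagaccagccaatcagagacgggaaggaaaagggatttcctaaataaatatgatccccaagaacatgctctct
Cxcl10: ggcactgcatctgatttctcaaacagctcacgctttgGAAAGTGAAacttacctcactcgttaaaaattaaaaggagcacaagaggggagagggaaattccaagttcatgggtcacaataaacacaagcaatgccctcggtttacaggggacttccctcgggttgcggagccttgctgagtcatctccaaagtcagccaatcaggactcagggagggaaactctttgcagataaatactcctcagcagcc
Ccl1: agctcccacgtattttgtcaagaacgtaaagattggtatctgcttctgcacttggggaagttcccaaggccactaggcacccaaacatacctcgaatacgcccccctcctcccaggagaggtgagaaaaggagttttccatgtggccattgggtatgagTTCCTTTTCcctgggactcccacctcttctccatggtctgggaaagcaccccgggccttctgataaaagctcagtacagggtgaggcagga
Ccl3: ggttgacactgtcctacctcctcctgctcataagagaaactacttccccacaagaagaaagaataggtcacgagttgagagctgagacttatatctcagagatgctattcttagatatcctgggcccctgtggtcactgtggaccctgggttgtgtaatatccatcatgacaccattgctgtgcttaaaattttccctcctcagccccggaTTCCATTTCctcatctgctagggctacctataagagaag
Cxcl1: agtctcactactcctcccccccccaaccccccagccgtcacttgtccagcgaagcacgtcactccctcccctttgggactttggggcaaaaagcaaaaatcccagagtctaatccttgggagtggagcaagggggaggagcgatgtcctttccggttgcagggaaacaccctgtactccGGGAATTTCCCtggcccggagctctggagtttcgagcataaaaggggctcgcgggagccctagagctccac

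The core searched was GAAANNGAA, and a window of 300 bases, from 250 before to 50 after the start, was read on both strands. It was found in 5 of the 24 genes, or 20.8%, against 9.76% of the 27025 genes in the table. These were Cxcl9 at bases -175 to -167, Cxcl10 at -213 to -205, Ccl3 at -39 to -31, Ccl1 at -91 to -83 and Cxcl14 at -172 to -164. The gamma-activated sequence TTCNNNGAA was in Ccl17 and Cxcl14, 8.33% of the members, and in 9.55% of all genes. Matches to the NF-kB consensus were in 8 of the 24, or 33.3%, against 9.55% of all genes. The 8 were the called genes Cxcl10, Ccl1 and Cxcl1, and Cxcl2, Cxcl3, Ccl9, Ccl20 and Ccl27a, which were not called. Cxcl10 and Ccl1 thus hold both this match and the interferon-stimulated response element core. A match describes the letters only, and binding was not measured.

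**Figure D1:**
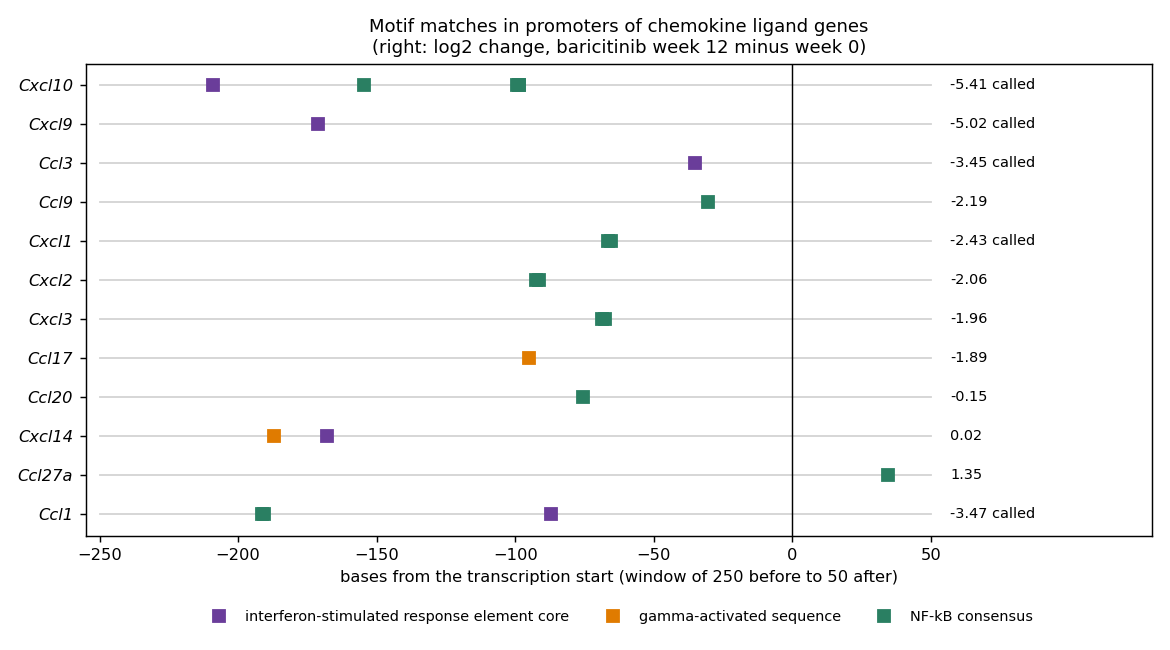
Motif matches by distance in bases from the transcription start, for the 12 chemokine ligand genes with a match, with the log2 change from week 0 to week 12 of baricitinib at the right. Of the genes with an interferon-stimulated response element core, Cxcl9, Cxcl10, Ccl1 and Ccl3 were called lower and Cxcl14 had a log2 change of 0.02. Of the genes with the NF-kB consensus, Cxcl10, Ccl1 and Cxcl1 were called lower, and Cxcl2, Cxcl3, Ccl9, Ccl20 and Ccl27a were not called.

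Over 12 weeks of topical baricitinib, 7 of the 34 chemokine ligands fell and none rose. They were the CXCR3 ligands Cxcl9, Cxcl10 and Cxcl11, the T cell and macrophage products Ccl3 and Ccl5, the CCR8 ligand Ccl1 and the neutrophil chemoattractant Cxcl1. A gene was called at a limma adjusted p under 0.05, with Benjamini-Hochberg adjustment across the 45037 probe sets. Of all genes 1.55% were called lower in this comparison and 0.5% higher. Below 0 lay the log2 changes of 29 of the 34 members, with a median of -1.75, against a median of -0.02 over all genes. In 20 members each array at week 12 lay below each array at week 0, as in 10.6% of all genes, and in none did each lie above, as in 8.94%. Within single mice, 23 members were lower at week 12 in all 3 baricitinib mice, as were 16.3% of all genes, and none was higher in all 3, as were 14.2%.

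The ligands of CXCR3 had the largest changes, with log2 changes between -6.31 and -5.02. Cxcl9 was at 11.71, 12.04 and 12.19 (log2 level, replicates 1 to 3) at week 0 of baricitinib and at 7.37, 7.43 and 6.06 at week 12. In vehicle skin Cxcl9 was at 12.24, 12.17 and 11.19 at week 0 and at 10.93, 10.42 and 10.41 at week 12. All 3 baricitinib week 12 arrays lay below every other array, and the vehicle week 12 arrays lay below all 6 arrays of week 0. Within the baricitinib mice Cxcl9 was 32.6-fold lower at week 12, with a log2 change of -5.02 (SE 0.39) and a limma adjusted p of 0.000546.

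Cxcl10, made by keratinocytes, endothelium and macrophages under interferon-gamma, was at 11.20, 10.90 and 11.45 at week 0 of baricitinib and at 6.09, 6.07 and 5.16 at week 12. Its levels in vehicle skin were 11.91, 10.86 and 9.86 at week 0 and 10.13, 9.30 and 8.99 at week 12. The baricitinib week 12 arrays stood apart from all others, while the weeks overlapped in vehicle skin, where vehicle week 0 replicate 3 lay below vehicle week 12 replicate 1. The log2 change with baricitinib was -5.41 (SE 0.48, 42.6-fold lower, limma adjusted p = 0.00115).

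For Cxcl11 the log2 levels were 10.21, 10.53 and 11.11 at week 0 of baricitinib and 4.08, 4.42 and 4.42 at week 12. In vehicle skin they were 11.37, 10.73 and 9.31 at week 0 and 9.26, 8.45 and 8.27 at week 12, so that each week 12 array was below each week 0 array there too. The week 12 levels with baricitinib were below the median of all probe sets, which was 5.16 to 5.35 on the 12 arrays. The log2 change was -6.31 (SE 0.47, 79.4-fold lower, limma adjusted p = 0.000546), and a second probe set gave -2.93 (adjusted p = 0.0118). RefSeq lists Cxcl9, Cxcl10 and Cxcl11 as neighbours on chromosome 5, with Cxcl11 as a transcribed pseudogene and the others as protein coding. This listing is of the C57BL/6J genome, and whether Cxcl11 is a pseudogene in C3H/HeJ mice was not examined. In skin as a whole, fewer cells of a type and less RNA per cell cannot be told apart.

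Ccl5, Ccl3 and Ccl4 are made by activated T cells and NK cells, among others, and attract T cells and monocytes. Ccl5 was at 10.83, 9.95 and 10.72 at week 0 of baricitinib and at 7.21, 8.32 and 6.35 at week 12. In vehicle skin Ccl5 was at 10.98, 10.86 and 11.10 at week 0 and at 10.95, 10.69 and 9.73 at week 12. The baricitinib week 12 arrays were again the 3 lowest of the 12, and replicate 2 was the highest of them. Its log2 change was -3.21 (SE 0.47, 9.25-fold lower, limma adjusted p = 0.0105), and the call was lost when the mouse was a fixed replicate block (adjusted p = 0.056) and without baricitinib week 0 replicate 3 (adjusted p = 0.0625).

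Ccl3 was at 6.84, 6.10 and 7.47 at week 0 of baricitinib and at 3.76, 3.13 and 3.17 at week 12. The vehicle arrays had 7.70, 6.93 and 6.90 at week 0 and 6.16, 5.19 and 5.11 at week 12, so that Ccl3 at week 12 lay below week 0 in both treatments. The log2 change with baricitinib was -3.45 (SE 0.40, 10.9-fold lower, limma adjusted p = 0.00288). Ccl4, which lies next to Ccl3 in the genome, changed by -1.65 (SE 0.51) and was not called (limma adjusted p = 0.169). Its levels were 5.80, 5.87 and 6.08 at week 0 of baricitinib and 4.81, 3.70 and 4.28 at week 12, without overlap.

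Ccl1, a product of activated T cells that binds CCR8, was at 7.87, 8.48 and 8.52 at week 0 of baricitinib and at 4.86, 4.88 and 4.69 at week 12. In vehicle skin it was at 8.43, 9.04 and 8.06 at week 0 and at 8.35, 7.83 and 7.08 at week 12. The 3 baricitinib week 12 arrays lay close together, all below the other 9 and below the array medians. The log2 change was -3.47 (SE 0.35, 11.1-fold lower, limma adjusted p = 0.0014).

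Cxcl1, which recruits neutrophils through CXCR2, was at 7.66, 5.89 and 6.94 at week 0 of baricitinib and at 4.31, 3.98 and 4.90 at week 12. In vehicle skin Cxcl1 was at 6.60, 5.78 and 6.68 at week 0 and at 5.87, 5.61 and 5.01 at week 12. The baricitinib week 12 arrays were the 3 lowest, replicate 3 by a small margin below vehicle week 12 replicate 3. The log2 change was -2.43 (SE 0.45, 5.40-fold lower, limma adjusted p = 0.0262), and the call was lost when the mouse was a fixed replicate block (adjusted p = 0.056). It was also lost without baricitinib week 0 replicate 1 (adjusted p = 0.0856) or 3 (0.117) and without baricitinib week 12 replicate 2 (0.115) or 3 (0.057). Its other probe sets gave -1.65 (adjusted p = 0.204) and -1.52 (adjusted p = 0.197) and were not called. The levels of Cxcl11, Ccl1, Ccl3 and Cxcl1 at week 12 of baricitinib were all under the array medians, where the size of a change is not exact. Cxcl10 was under the median there in replicate 3 only, at 5.16 against 5.33.

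**Figure D2:**
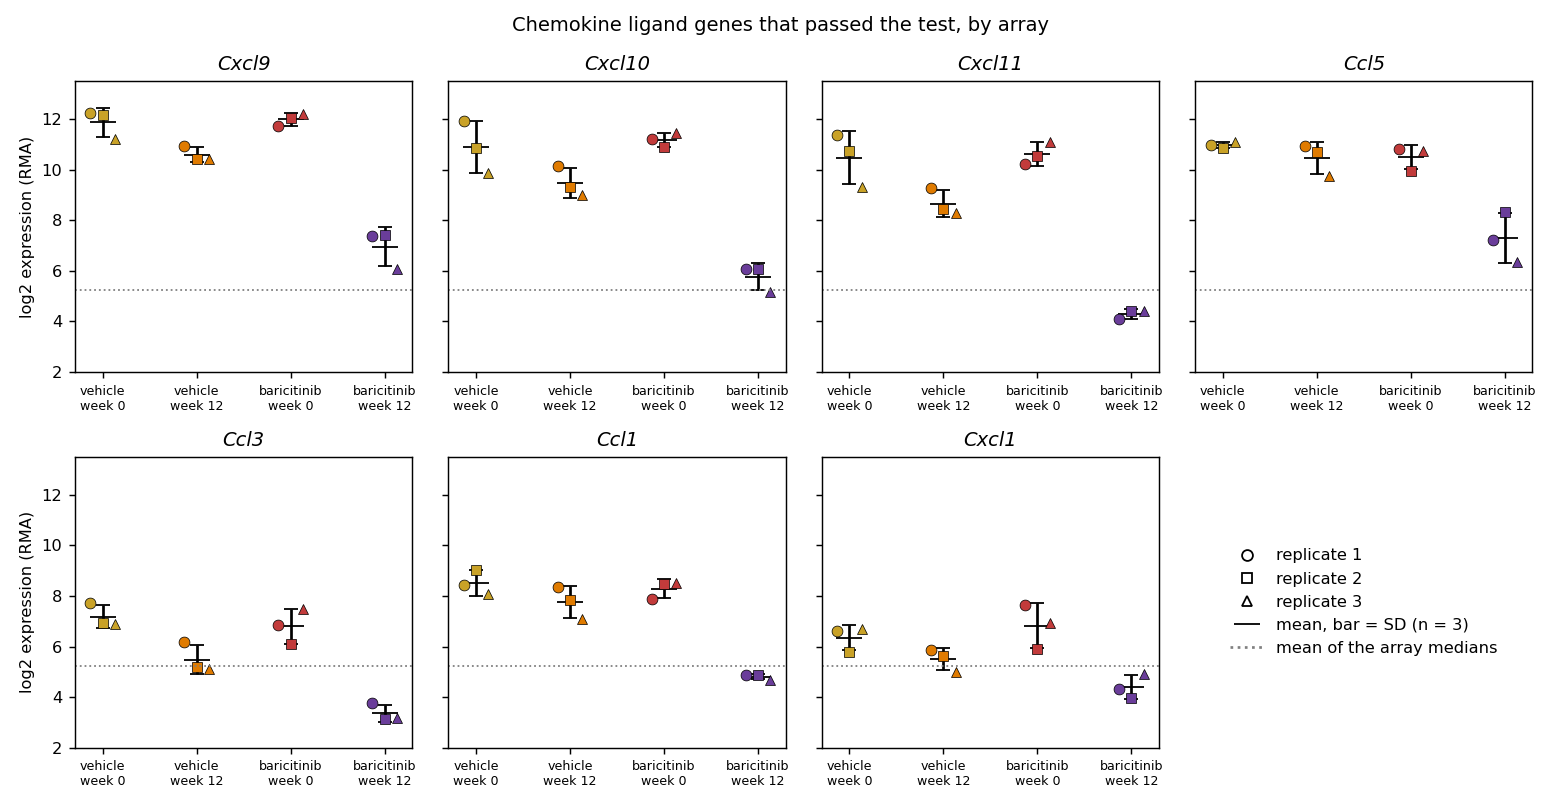
Log2 expression by array for the 7 chemokine ligand genes that passed the test, in the 4 groups; symbols are the 3 replicates, bars the mean and SD (n = 3), and the dotted line is the mean of the array medians. The baricitinib week 12 arrays are the lowest of each panel, at 4.08 to 4.42 for Cxcl11 and 6.06 to 7.43 for Cxcl9.

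Other inflammatory chemokine ligands had log2 changes below 0 with baricitinib but did not pass the test. The monocyte chemoattractants of the CCR2 group, Ccl2, Ccl7, Ccl8 and Ccl12, had a median log2 change of -1.87, with 0 of 4 called. Ccl2, the main attractant of monocytes, was at 9.05, 8.38 and 10.01 at week 0 of baricitinib and at 6.85, 6.71 and 6.80 at week 12, which is a change of -2.36 (SE 0.67, limma adjusted p = 0.133). In vehicle skin Ccl2 was at 10.79, 8.81 and 7.48 at week 0 and at 8.05, 7.37 and 7.17 at week 12. The spread of Ccl2 between replicates was thus wide at week 0 and narrow at week 12 of baricitinib.

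Among the further CXCR2 ligands, the log2 change was -1.96 for Cxcl3 (SE 0.51, limma adjusted p = 0.0966), -2.06 for Cxcl2 and -1.63 for Cxcl5. Cxcl3 and Cxcl5 were not above the array median on at least 3 arrays. Xcl1, a ligand of XCR1 on cross-presenting dendritic cells that is made by T and NK cells, was at 6.28, 7.72 and 7.74 at week 0 of baricitinib and at 4.31, 5.06 and 5.90 at week 12. The 2 times did not overlap, and the log2 change of Xcl1 was -2.16 (SE 0.52, adjusted p = 0.0769). Ccl24, an eotaxin that attracts eosinophils through CCR3, had a log2 change of -3.12 (SE 0.84, adjusted p = 0.111), and the eotaxin Ccl11 one of -1.02. The CCR4 ligands Ccl17 and Ccl22, which attract Th2 and regulatory T cells, had -1.89 (adjusted p = 0.162) and -0.71 (adjusted p = 0.648).

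Several ligands known from macrophages differed widely between arrays of one group. Ccl8 was at 11.28, 10.47 and 9.68 at week 12 of baricitinib and at 10.49, 11.51 and 11.75 at week 12 of vehicle. Ccl9 was at 9.37, 7.57 and 6.53 and at 8.03, 9.50 and 9.56, and Ccl12 at 7.27, 5.65 and 4.91 and at 5.47, 7.42 and 7.62, in the same order of arrays. Replicate 1 was the highest of these baricitinib arrays and the lowest of these vehicle arrays for each of the 3 genes. The mean log2 level of 10 macrophage and monocyte genes was 8.65, 8.08 and 7.76 at week 12 of baricitinib and 7.69, 8.53 and 8.52 at week 12 of vehicle, which is the same position for replicate 1. At week 0 it was 8.69, 8.59 and 8.55 before baricitinib and 9.25, 8.04 and 8.07 before vehicle. Replicate 1 had this week 12 position also in the marker lists of mast cells, platelets, endothelium, adipocytes and skeletal muscle. It had the opposite position in those of T cells and cytotoxic lymphocytes. Among the other members Ccl6, Ccl11, Ccl24, Ccl25, Cxcl5, Cxcl13 and Pf4 shared the position, and Cxcl11, Ccl22 and Ccl27a had the opposite one. The pattern was thus not particular to macrophage genes. The part of any of these markers in the values of the ligands was not tested. Of the macrophage genes none was called, and the log2 changes of Ccl6, Ccl8, Ccl9 and Ccl12 with baricitinib were -1.29, -1.41, -2.19 and -1.84 (limma adjusted p between 0.122 and 0.369). The second probe set of Ccl6 gave -2.07 (adjusted p = 0.0573). Cxcl13, which guides B cells, had a log2 change of -2.15 with a wide spread (SE 1.11, adjusted p = 0.487).

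Ligands grouped as stromal and epithelial showed no change that passed the test, with 0 of 8 called and a median log2 change of 0.05. Cxcl12, the ligand of CXCR4, was at 11.03, 10.81 and 10.73 at week 0 of baricitinib and at 10.49, 10.53 and 10.29 at week 12, which is a change of -0.42 (SE 0.25, limma adjusted p = 0.567). Cxcl14, a chemokine of epithelia, was at 10.87, 11.10 and 11.24 and then at 11.38, 10.89 and 11.02, a change of 0.02 (SE 0.24, adjusted p = 0.982). The arrays of both times thus overlapped for Cxcl14 but not for this probe set of Cxcl12. In another bright probe set of Cxcl12 they overlapped, at 8.80, 9.48 and 8.74 and then at 9.45, 9.01 and 8.52. Ccl27a, the keratinocyte ligand of CCR10, had the highest log2 change of the members with 1.35 (SE 0.72, adjusted p = 0.507), and baricitinib week 0 replicate 2 was low for it, at 3.42 against 5.62 and 5.61. Its mean level of 5.45 was near the array medians, and it lay above them on 8 of 12 arrays.

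The log2 changes of Ccl20, Ccl25, Ccl28, Cxcl15 and Cxcl17 lay between -0.17 and 0.33, and a second probe set of Ccl25 had the opposite sign with -0.70 (adjusted p = 0.615). Ccl28, Cxcl15 and Cxcl17 were not above the array median on at least 3 arrays. The membrane-bound chemokines Cxcl16 and Cx3cl1 had log2 changes of -0.30 and -0.38 (adjusted p = 0.778 and 0.687). Pf4, a chemokine of platelets, had -0.05 (adjusted p = 0.986), and 0 of 6 platelet genes were called. The mean log2 level of these 6 was 3.70 to 4.74 at week 12 of baricitinib, under the array medians, while Pf4 was above them on all 12 arrays.

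**Figure D3:**
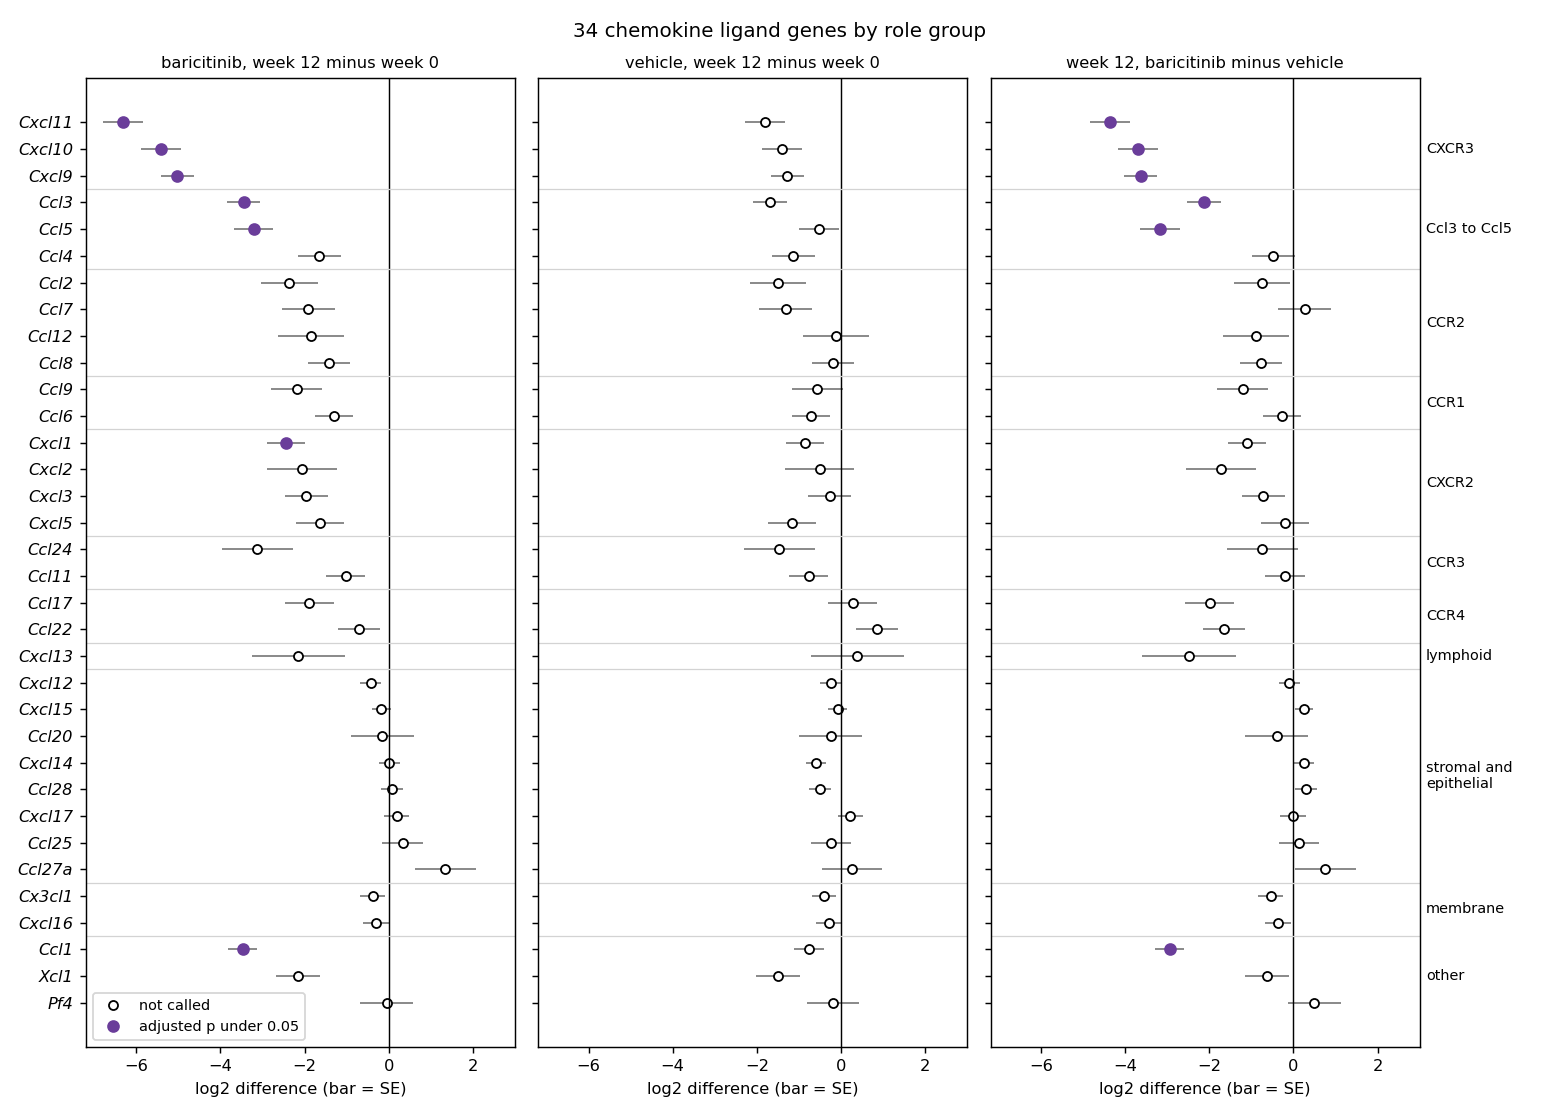
Log2 differences with SE of the 34 chemokine ligand genes by role group, for week 12 minus week 0 of baricitinib, the same for vehicle, and baricitinib minus vehicle at week 12; filled points passed the test. The called genes are 7, 0 and 6, all below 0, and the stromal and epithelial ligands have a median of 0.05 in the first panel and range from -0.42 to 1.35.

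At week 12, 6 chemokine ligands were lower in baricitinib than in vehicle skin and none was higher. They were Cxcl9, Cxcl10, Cxcl11, Ccl1, Ccl3 and Ccl5, against 0.709% of all genes called lower and 0.242% called higher. The difference was below 0 in 27 of the 34, with a median of -0.67, against -0.04 over all genes. In 11 members each baricitinib array lay below each vehicle array, as in 13.3% of all genes, and in none did each lie above, as in 6.7%.

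The differences of the CXCR3 ligands, Cxcl9 with -3.63 (SE 0.39), Cxcl10 with -3.70 (SE 0.48) and Cxcl11 with -4.36 (SE 0.47), were smaller than their changes from week 0. Ccl5 differed by -3.17 (SE 0.47, 8.98-fold lower, limma adjusted p = 0.0148), Ccl1 by -2.94 (SE 0.35, 7.68-fold lower, adjusted p = 0.00756) and Ccl3 by -2.13 (SE 0.40, 4.39-fold lower, adjusted p = 0.0441). The vehicle changes of Ccl1 and Ccl5 from week 0 were -0.76 (SE 0.35) and -0.52 (SE 0.47) and were not called. Cxcl1 differed from vehicle by -1.10 and did not pass (SE 0.45, adjusted p = 0.382). Without vehicle week 12 replicate 1 only Cxcl9, Cxcl11 and Ccl1 were called, while Cxcl10 (adjusted p = 0.0517), Ccl5 (0.0815) and Ccl3 (0.158) were not, and Ccl5 was not called without vehicle week 12 replicate 2 either (0.0803). Ccl3 lost its call under 10 of 22 alternatives, among them each of 8 single arrays left out (adjusted p up to 0.173), and the second Cxcl11 probe set had -1.11 (adjusted p = 0.364).

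The CCR4 ligands were nearest to the threshold among the others. Ccl17 was at 6.16, 6.56 and 7.10 with baricitinib and at 7.73, 8.69 and 9.35 with vehicle, a difference of -1.99 (SE 0.58, limma adjusted p = 0.185), and Ccl22 differed by -1.64 (adjusted p = 0.207). The groups did not overlap for Ccl17. Cxcl13 had a difference of -2.48 (SE 1.11, adjusted p = 0.448). For the monocyte chemoattractants the differences lay between -0.89 and 0.27, and Ccl2 had -0.74 (SE 0.67, adjusted p = 0.809). The stromal and epithelial ligands had a median of 0.19.

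In the vehicle mice limma called 0 members over the 12 weeks in either direction, as 0% of all genes, and 8 members were lower and none higher at an unadjusted p under 0.05, against 2.96% of all genes in either direction. Of the 34 changes 29 lay below 0, with a median of -0.52, against 0.05 over all genes. The 8 were Cxcl9 with -1.28 (SE 0.39), Cxcl10 with -1.40 (SE 0.48), Cxcl11 with -1.81 (SE 0.47), Ccl3 with -1.69 (SE 0.40), Ccl4 with -1.13, Ccl2 with -1.50, Xcl1 with -1.50 and Cxcl14 with -0.60. In 6 members the vehicle week 12 arrays all lay below those of week 0, as in 3.51% of all genes, and in none all above, as in 5.94%. Xcl1 was at 8.11, 6.84 and 6.68 at week 0 of vehicle and at 5.53, 6.17 and 5.42 at week 12, without overlap. The CCR4 ligands Ccl22 with 0.85 and Ccl17 with 0.28 were among the 5 members above 0, and 14 members were lower in all 3 vehicle mice, as were 10.7% of all genes, and 1 was higher, as were 17.8%.

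Before treatment no chemokine ligand was called between the mice assigned to baricitinib and to vehicle. At week 0 limma called 0 members and 0% of all genes in either direction, and 0 members had an unadjusted p under 0.05. The differences lay between -0.56 for Cx3cl1 and 0.97 for Cxcl3, with a median of 0.07, which was -0.22 without vehicle week 0 replicate 3. For the CXCR3 ligands they were 0.11 for Cxcl9, 0.31 for Cxcl10 and 0.15 for Cxcl11 (SE 0.39, 0.48 and 0.47).

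Whether the change with baricitinib differed from that with vehicle was tested directly, as the difference of the 2 changes. Limma called 0 members and 0% of all genes in either direction, while 10 members had an unadjusted p under 0.05, all more negative with baricitinib, against 7.41% of all genes. The differences were -4.50 for Cxcl11 (SE 0.66, adjusted p = 0.081), -3.74 for Cxcl9 (SE 0.56, adjusted p = 0.081), -4.01 for Cxcl10 (SE 0.68, adjusted p = 0.131), -2.72 for Ccl1 (SE 0.49, adjusted p = 0.158) and -2.69 for Ccl5 (SE 0.66, adjusted p = 0.316). Within single mice the log2 change of Cxcl11 was -6.13, -6.11 and -6.70 with baricitinib and -2.11, -2.28 and -1.04 with vehicle. The baricitinib and the vehicle mice did not overlap in it. For Ccl2 the difference of the changes was -0.86 (SE 0.95) and for Xcl1 -0.65 (SE 0.74), with adjusted p = 0.97 and 0.972. The median over the members was -0.76, against -0.07 over all genes. Without baricitinib week 12 replicate 1 the test called 1 member, Cxcl9, and with that 3' against 5' index in the fit 1, Cxcl11.

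**Figure D4:**
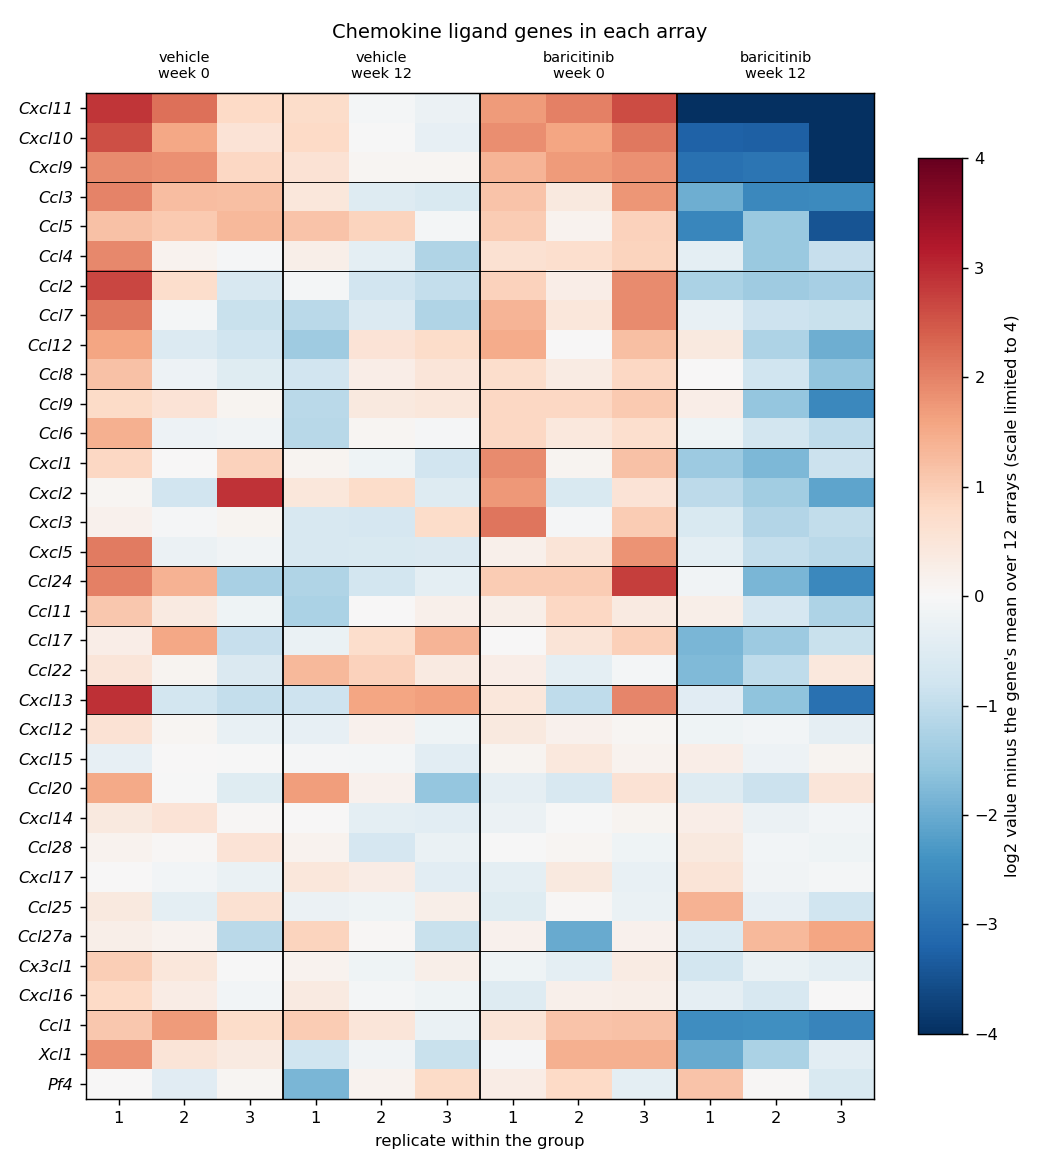
Log2 level of each of the 34 chemokine ligand genes in the 12 arrays, as the deviation from the mean of the gene, with colour limited to 4 log2 units in either direction. In the baricitinib week 12 columns Cxcl9, Cxcl10, Cxcl11, Ccl1, Ccl3 and Ccl5 are blue in all 3 arrays. Replicate 1 of that group lies above the mean of the gene for Ccl8, Ccl9 and Ccl12, and slightly below it for Ccl24.

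Of the receptors to which these ligands bind, 16 of 18 conventional ones were measured, and 2 fell with baricitinib. Ccr2, the receptor for Ccl2 on monocytes, was at 8.48, 8.96 and 9.39 at week 0 and at 5.66, 6.79 and 5.41 at week 12, which is a change of -2.99 (SE 0.51, limma adjusted p = 0.0191). Cxcr4, the receptor for Cxcl12, was at 10.40, 10.15 and 10.24 and then at 8.28, 9.08 and 8.30, a change of -1.71 (SE 0.27, adjusted p = 0.0152). Neither overlapped between the times, and both calls were lost when the mouse was a fixed replicate block (adjusted p = 0.0808 and 0.0732). Without baricitinib week 0 replicate 3 or week 12 replicate 3 neither was called, nor was Ccr2 without week 0 replicate 2 or Cxcr4 without week 0 replicate 1 (adjusted p of at most 0.0966).

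The median of the receptor list was -0.45, and 0 of 16 were called against vehicle at week 12. Cxcr3, the receptor for the ligands that changed most, had a log2 change of -0.46 (adjusted p = 0.771), from 7.61, 5.51 and 6.02 to 6.36, 5.81 and 5.60. Its arrays overlapped between the times. Ccr1 had -2.13 (adjusted p = 0.0641), and Ccr8, the receptor for Ccl1, was under the array median on all 12 arrays. Of 5 atypical receptors, which scavenge chemokines without G protein signalling, none was called, and Ackr2 had 1.51 (adjusted p = 0.256).

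Among 16 measured genes of the interferon and JAK-STAT route, 2 fell with baricitinib. Ifng, which encodes interferon-gamma, was at 8.19, 7.16 and 8.27 at week 0 and at 3.77, 4.98 and 4.35 at week 12, and was lower by both comparisons, with -3.50 against week 0 (SE 0.40, limma adjusted p = 0.0028) and -2.43 against vehicle (adjusted p = 0.0248). The first call of Ifng was kept under all 22 alternatives, the second not without baricitinib week 12 replicate 3 or without any single vehicle week 12 array (adjusted p of at most 0.121). Irf1, a transcription factor that binds interferon-stimulated response elements, changed by -1.47 (SE 0.31, adjusted p = 0.0456), and its call was lost under 12 of 22 alternatives, such as the mouse as a fixed block (adjusted p = 0.0815) and each baricitinib array left out but week 12 replicate 1, with 4 of the vehicle arrays (adjusted p of at most 0.183). The median of this list was -0.49. Of 13 genes of the TNF, IL-1 and IL-17 route none was called, with a median of -0.03, and Il1b had the lowest log2 change with -1.56 (adjusted p = 0.0818).

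Markers of the leukocytes that make or follow these ligands moved unequally over the same time. Of 9 T cell genes only Cd8a was called, with -4.29 (SE 0.60, limma adjusted p = 0.00912), while the median was -0.08 and Cd3e had 0.01. The mean log2 level of the 9 genes was 6.25 to 7.23 at week 0 of baricitinib and 5.84 to 6.56 at week 12. Of 10 genes of cytotoxic lymphocytes, Gzmb with -5.05 and Gzma with -5.42 were called (Gzma not when the mouse was a fixed replicate block, adjusted p = 0.063, nor without baricitinib week 0 replicate 1 or 3 or week 12 replicate 3). The level of this list was 6.74 to 7.12 at week 0 of baricitinib, 4.95 to 5.71 at week 12 and 6.31 to 7.01 at week 12 of vehicle, so that the baricitinib week 12 arrays were the lowest. Ccl5 in replicate 2, the highest of the baricitinib week 12 arrays, stands beside the highest level of these markers, 5.71 against 4.95 and 4.96.

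Of 8 neutrophil genes, beside the neutrophil chemoattractants, none was called, and Elane, Ltf, Camp and Ngp were under the array median on all arrays. Their list was at 5.32 to 5.60 at week 0 of baricitinib and at 4.83 to 4.93 at week 12. Of 10 hair shaft genes 3 were called lower and all 10 changes lay below 0, with a median of -4.47. Of 6 adipocyte genes 1 was called higher, Cidec with 2.76. With the mouse as a fixed block only Krt35 of the called genes in both lists kept its call, and Cidec had an adjusted p of 0.0799. The paper reports hair regrowth in mice given baricitinib, and the stage of the hair cycle in the biopsies was not examined here. None of the genes of dendritic cells, B cells, mast cells, endothelium and skeletal muscle was called. The part of these markers in the changes of the chemokine ligands was not tested.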

How the data were processed

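RNA of skin biopsies was amplified, labelled and hybridized to Affymetrix mouse genome arrays by the authors, who normalized the arrays of the experiment by RMA. Per their methods, arrays that failed quality control were removed before downstream analysis: of this experiment 1 baricitinib array of each time, and 1 control array at baseline whose experiment is not named. All 12 arrays given here were used, and whether those arrays are among them is not stated. Their deposited log2 values were not normalized again. The version of RMA is not given in the sources used here. Precision is limited by the number of arrays.

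Without 64 controls, 45037 probe sets were tested (34945 with 1 symbol, 932 with several and 9160 with none). Limma 3.58.1 in R 4.3.3 fitted a mean for each of 4 groups on all 12 arrays (8 residual degrees of freedom, 3.54 from the prior), with Benjamini-Hochberg adjustment across probe sets and a threshold of 0.05. The comparisons share arrays. A gene took the probe set with the highest mean. Per the labels, each mouse was sampled at both times. Deviations from the group means correlated between both times of a mouse at -0.36, -0.51 and 0.47 with baricitinib and at 0.44, -0.13 and 0.49 with vehicle.

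Members, role groups and marker lists were chosen with earlier results of these data known. Values in every array were given for each called member, other members were given by role group, and genes of the receptor and inducer lists were named where called. Others named were chosen after their values were seen. Alternatives were the removal of dim probe sets, another prior variance, a fixed or random block for the mouse, only the 2 groups compared, median centring, cyclic loess, array weights, the mean of the probe sets and each array left out. Promoters were read from RefSeq with Python 3.11.15. The fit was tested on simulated data.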

Additional observations from a re-analysis of the deposited data

How the results depend on the processing

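None of the 7 changes called with baricitinib and the 6 differences called against vehicle at week 12 reversed under any alternative. Of the members not called with baricitinib, 6 had the other sign under at least 1 alternative (Ccl20, Ccl25, Ccl28, Cxcl14, Cxcl17 and Pf4), such as Ccl25 with -0.19 and Ccl28 with -0.12 by the mean of the probe sets, and 27 to 33 of the 34 members lay below 0. The calls of Cxcl9, Cxcl11 and Ccl1 were kept in both comparisons under every alternative, and those of Cxcl10 and Ccl3 from week 0 to week 12 of baricitinib as well. With a fixed replicate block for the mouse, 5 members were called in this comparison in place of 7, as Ccl5 and Cxcl1 were not, and with the random block 7. The random block had a correlation of -0.00388, so that its fit was close to the main one. The fixed block was not fitted for baricitinib against vehicle at either week, as each mouse had 1 treatment. For the vehicle mice and for the difference of the changes, neither block called a member. Fits of only the 2 groups compared called 5 members there (without Ccl5 and Cxcl1) and 4 against vehicle at week 12 (without Ccl3 and Ccl5). Cxcl1 lost its call under 7 of 23 alternatives (largest adjusted p = 0.127), Ccl5 under 3 of 23, and against vehicle Ccl3 under 10 of 22 (largest adjusted p = 0.173), Ccl5 under 3 and Cxcl10 under 1.

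When each array was left out in turn, 5 to 9 members were called for week 12 against week 0 of baricitinib, 3 to 6 against vehicle at week 12, and 0 to 1 for the difference of the changes, while 0.155% to 3.03%, 0.0711% to 1.39% and 0% to 0.122% of all probe sets were called. For that difference, the call made was Cxcl9, without baricitinib week 12 replicate 1. Adding the index of 3' against 5' levels gave 1 call, Cxcl11. Leaving out the 2 arrays with the narrowest spread, baricitinib week 0 replicate 2 and week 12 replicate 1, called 9 members in the first of these comparisons (1.91% of all probe sets) and 6 in the second (2.24%). The latter settings were chosen after seeing the data. Array weights called 24 members for week 12 against week 0 of baricitinib (25% of all probe sets), 9 for vehicle (11.1%), 16 for baricitinib against vehicle at week 12 (24.9%), 10 at week 0 (12.7%) and 18 for the difference of the changes (14.6%), but their estimation stopped before it converged and gave 1 array a weight of 32.1. Members under the array medians at week 12 of baricitinib give changes of inexact size, as signal over background was not computed.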
